A study of Homo sapiens with 15 samples.

Results

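HTT, VCP, TARDBP and TMEM106B are 4 human genes tied to neurodegenerative disease, and the use of their distal poly(A) sites was followed in HEK293T cells after knockdown of 6 candidate regulators of alternative polyadenylation. The 4 genes were taken by symbol from a table of 13056 genes, 1 transcript per gene. They were picked with earlier results of these same PDUI values known. Their own values below, and any calls among them, are therefore a description and not a test. HEK293T is a human embryonic kidney cell line and not a neuron. Its identity could not be checked here, since the table holds no expression levels.

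Poly(A) RNA, enriched on oligo(dT) beads, was sequenced from 15 libraries. The labels name both an isolation of nuclear RNA and an extraction of total RNA, without saying which library had which. The control group, named shControl for its control short hairpin RNA, is labelled WT in genotype and had 3 libraries. The knockdown groups shHDAC1, shPABPN1, shPCBP2, shSF3B4, shU2AF2 and shZNF384 each carried a hairpin against the gene in the name and had 2 libraries each. No source used here gives the hairpin sequences, the time after delivery or whether replicates came from separate cultures, so the spread between libraries may be technical. Names of the 3 shControl libraries end in nuc and those of the knockdown libraries do not, so a difference in preparation and the knockdown cannot be told apart in any comparison with shControl. How far each hairpin lowered its target cannot be read from this table.

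The measurement was PDUI, an index of distal poly(A) site usage, given as a fraction. For each gene it estimates what part of its RNA reaches the distal poly(A) site, so it is 1 where all of it does and near 0 where nearly all ends at the proximal site. Values are given to 2 decimals, apart from 1287 entries at 0.001, the lowest value, so 0.01 is the usual step. The table lists no reads, which leaves the depth of each estimate unknown. All 4 genes had a value in all 15 libraries, as did 11353 genes of the table. Mean PDUI over those genes ran from 0.522 in shControl replicate 1 to 0.585 in shZNF384 replicate 2, and the other shControl libraries stood at 0.56 and 0.561.

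Most human genes can end their messenger RNA at more than 1 poly(A) site, and the choice sets how much of the 3' untranslated region (UTR) a transcript keeps. A stretch lost with a proximal site can hold binding sites for microRNAs and RNA-binding proteins. TARDBP encodes TDP-43, a nuclear RNA-binding protein that forms inclusions in amyotrophic lateral sclerosis (ALS) and frontotemporal dementia (FTD), and that limits its own level by acting on its own 3' UTR. HTT encodes huntingtin, a large scaffold protein whose polyglutamine tract is expanded in Huntington disease, and its messenger RNA is known in a short and a long 3' UTR form. VCP encodes an AAA ATPase that pulls ubiquitinated proteins out of complexes and membranes, and its mutations cause inclusion body myopathy with FTD and ALS. TMEM106B encodes a lysosomal membrane protein at a risk locus for FTD, and its fragments form amyloid filaments in aged brains.

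The letters that guide cleavage near the ends of these transcripts are shown because PDUI weighs a proximal against a distal end. Cleavage usually follows a signal hexamer, most often AATAAA and next most often ATTAAA. The table does not say where the proximal site of a gene lies, so none of the sites below can be named as the one measured. Both hexamers were searched on the transcript strand of the 3' UTR in GENCODE release 29 (GRCh38, which is hg38). Each sequence has 30 bases, 5′ to 3′, with the hexamer in capitals. The first hexamer after the stop codon and the last before the transcript end are shown for each gene, with a further site for TARDBP at which several annotated transcripts end.
TARDBP first, chr1:11024012-11024041, plus strand: tggaaattcttaAATAAAactgatttaaat
TARDBP second, chr1:11024151-11024180, plus strand: tattttgcttcaAATAAActtatttgaaaa
TARDBP last, chr1:11026131-11026160, plus strand: ccttactgctaaAATAAAttcttagcattg
HTT first, chr4:3241406-3241435, plus strand: aggagccaagtcATTAAAatggaagtggat
HTT last, chr4:3243922-3243951, plus strand: ttgtacatccaaATTAAAggaaaaaaatgg
VCP first, chr9:35056911-35056940, minus strand: caaaagcgataaAATAAAagcgattttcat
VCP last, chr9:35056079-35056108, minus strand: ttatgtactttgATTAAAaaaaaaaaactt
TMEM106B first, chr7:12232245-12232274, plus strand: cccctatagtacAATAAAtaattatttaaa
TMEM106B last, chr7:12233054-12233083, plus strand: gatggtggccaaAATAAAacctatttagaa

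The 4 genes fell into 2 with a long 3' UTR and 2 with a short one, each within a single last exon. The 3' UTR of TARDBP spans 3766 bases (chromosome 1, 11022655 to 11026420) and that of HTT 3901 bases (chromosome 4, 3240060 to 3243960). VCP has 1053 bases (chromosome 9, 35056064 to 35057116) and TMEM106B 1114 bases (chromosome 7, 12231976 to 12233089). The last exon of TARDBP, at 4297 bases, was longer than 89.1% of the 12704 last exons matched in the table, and that of HTT, at 4115 bases, longer than 88%. Those of VCP and TMEM106B, at 1159 and 1253 bases, lay near the median of 1372 bases. The transcript versions of TARDBP and HTT were those of the release, while the versions of VCP and TMEM106B differed by 1 step, so their ends may differ from the ones given.

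The hexamers were spread unevenly among the 4 genes. HTT had 2 in its 3' UTR, both ATTAAA, at 1359 and 3875 bases after the stop codon. TARDBP had 7, VCP had 3, and TMEM106B had 8 within a much shorter UTR than that of TARDBP. Counted over the whole last exon, this came to 6.38 hexamers per kilobase in TMEM106B and 0.486 in HTT, against a median of 1.64 over all last exons. At least 1 of the hexamers lay in the last 50 bases of the transcript in HTT, VCP and TMEM106B, as in 74.6% of the last exons of at least 50 bases in the table, and not in TARDBP. In TARDBP, 5 annotated transcripts ended 20 to 30 bases after the start of the second hexamer, 1509 bases after the stop codon, and 2 ended 19 bases after the start of the first. A match of these letters is a description and not evidence of a used site. The last exon of TARDBP shares 952 bases with exons of AL109811.4 on the same strand, so reads there could belong to either gene. Those of the other 3 overlap no exon of another gene, while overlap occurred in 25.5% of last exons. TMEM106B also has an annotated transcript that ends farther on, at position 12243367.

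**Figure D1:**
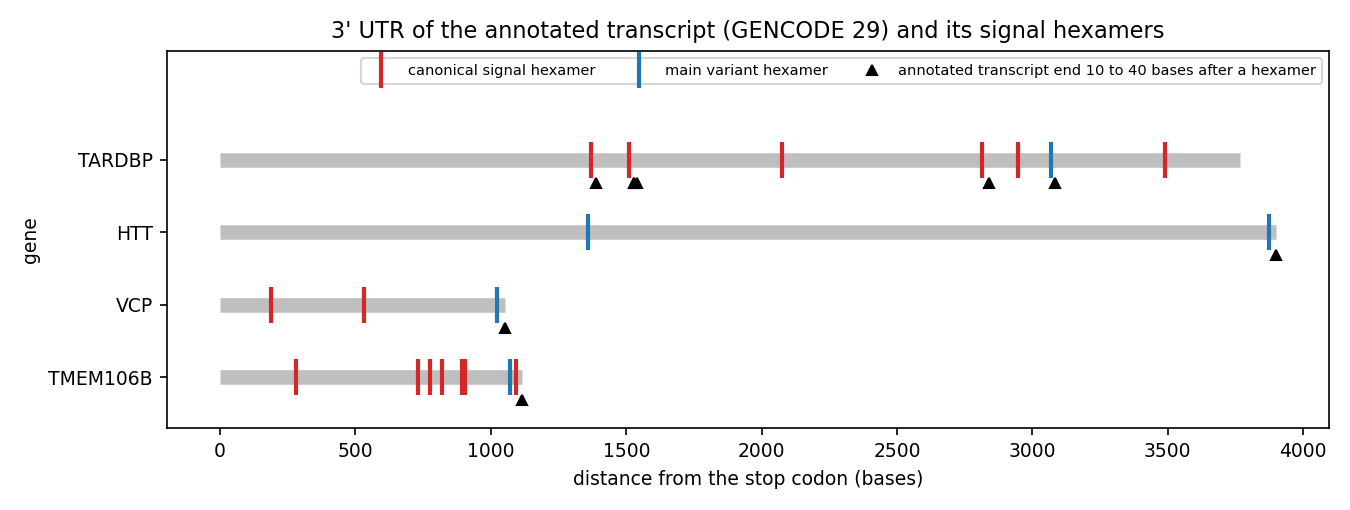
The 3' UTR of each gene drawn to scale as a grey bar, with the distance from the stop codon in bases on the x axis. Red marks are AATAAA, blue marks ATTAAA, and triangles mark annotated transcript ends 10 to 40 bases after a hexamer. TARDBP and HTT have the long bars, 3766 and 3901 bases, and TMEM106B has 8 hexamers in 1114 bases.

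PDUI was low for all 4 genes in the shControl libraries. Since the sites measured are not known, a low PDUI does not establish which ends were used. The shControl mean was 0.303 ± 0.029 for TARDBP, 0.25 ± 0.0265 for VCP, 0.18 ± 0.01 for HTT and 0.043 ± 0.006 for TMEM106B (SD, n = 3). The median over 12820 genes was 0.573. Only 24.8% of these genes had a lower control mean than TARDBP, 20.6% than VCP, 15% than HTT and 3.79% than TMEM106B.

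The PDUI of TARDBP rose most in shPCBP2. PCBP2 is a KH-domain protein that binds C-rich RNA. TARDBP stood at 0.27, 0.32 and 0.32 in shControl and at 0.43 in both shPCBP2 libraries, a difference of 0.127 (SE 0.019). Here and below, the SE of a difference comes from the limma fit over all 15 libraries. It pools the spread within all groups and is not the spread of the compared groups alone. Values of 0.37 and 0.39 in shZNF384 and of 0.38 and 0.34 in shPABPN1 also lay above every control library. Those of shHDAC1, at 0.24 in both libraries, lay below every control library, a difference of −0.063 (SE 0.019). HDAC1 is a histone deacetylase, ZNF384 a zinc finger transcription factor and PABPN1 the nuclear poly(A)-binding protein. In the splicing factor knockdowns TARDBP overlapped with the control range, at 0.3 and 0.34 in shSF3B4 and 0.31 in both shU2AF2 libraries. The order from low to high was shHDAC1, shControl, shU2AF2, shSF3B4, shPABPN1, shZNF384 and shPCBP2. Only the steps at either end, from shHDAC1 to shControl and from shZNF384 to shPCBP2, were between neighbours whose libraries did not overlap.

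HTT moved most in shSF3B4. SF3B4 is a subunit of the SF3b complex, by which the U2 snRNP recognises the branch point of an intron. HTT stood at 0.17, 0.18 and 0.19 in shControl and at 0.32 and 0.29 in shSF3B4 (SD 0.0212). The difference was 0.125 (SE 0.01). HTT was at 0.26 and 0.24 in shPABPN1, a difference of 0.07 (SE 0.01). In all 4 libraries of shU2AF2 and shZNF384 it stood at 0.22, a difference of 0.04 in each. All 8 of these libraries were above all 3 control libraries. The shPCBP2 libraries, at 0.19 and 0.18, lay within the control range, and both shHDAC1 libraries, at 0.16, lay just below it. From low to high the order was shHDAC1, shControl, shPCBP2, shU2AF2 with shZNF384, shPABPN1 and shSF3B4. Libraries overlapped only between shControl and shPCBP2 and between the tied pair.

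VCP moved most in shU2AF2. U2AF2, the large U2AF subunit, contacts the pyrimidine-rich tract just ahead of an exon. VCP stood at 0.22, 0.27 and 0.26 in shControl and at 0.4 and 0.37 in shU2AF2, a difference of 0.135 (SE 0.019). No other knockdown differed from shControl by more than 0.045 in either direction. The shSF3B4 libraries, at 0.28 and 0.29, lay just above the control range, and those of shPABPN1, at 0.21 and 0.2, just below it. Those of shZNF384 were 0.32 and 0.27, those of shPCBP2 0.27 and 0.25, and those of shHDAC1 0.23 and 0.24, all overlapping with the control libraries. In the order shPABPN1, shHDAC1, shControl, shPCBP2, shSF3B4, shZNF384 and shU2AF2, the largest gap between neighbours was the last, of 0.09. VCP was the 1 gene of the 4 that stood lower in shPABPN1 than in shControl.

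TMEM106B had the lowest level and was higher in 4 of the 6 knockdowns. It stood at 0.04, 0.04 and 0.05 in shControl and at 0.16 and 0.14 in shU2AF2, a difference of 0.107 (SE 0.01). The values were 0.14 and 0.12 in shZNF384, 0.13 and 0.11 in shPABPN1 and 0.09 and 0.08 in shPCBP2. All 8 of these libraries were above all 3 control libraries. With each library centred on its median, the difference in shPCBP2 fell from 0.042 to 0.008. The shHDAC1 libraries, at 0.04 and 0.06, and the shSF3B4 libraries, at 0.03 and 0.04, overlapped with the control libraries. At this level the 2-decimal rounding is a large part of the value, so ratios are not given. The groups fell into a low set of shSF3B4, shControl and shHDAC1, with shPCBP2 above it and then shPABPN1, shZNF384 and shU2AF2. Neighbours overlapped within the low set and among the last 3 groups, and not across the steps to and from shPCBP2.

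**Figure D2:**
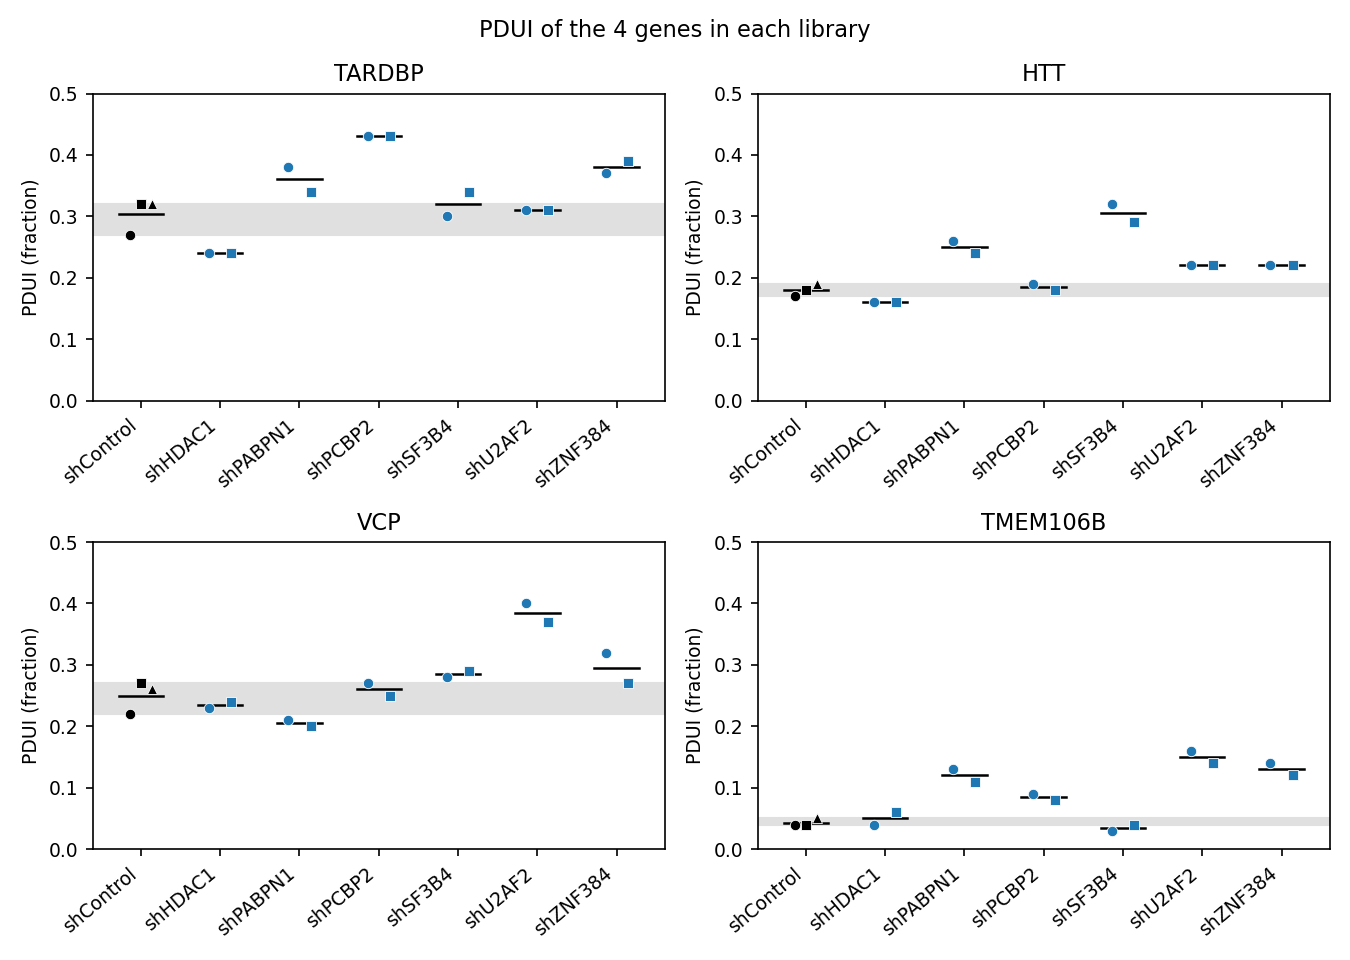
PDUI as a fraction on the y axis for each library, by group on the x axis, with 1 panel per gene. Points are libraries (circle, square and triangle for replicates 1, 2 and 3), bars are group means, and the grey band spans the shControl libraries. The highest group is shPCBP2 for TARDBP, shSF3B4 for HTT and shU2AF2 for VCP and TMEM106B.

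The libraries of a knockdown lay wholly outside the control range for 2 of the 4 genes in shHDAC1 (15.3% of all genes tested), 4 in shPABPN1 (26%), 2 in shPCBP2 (21.6%), 2 in shSF3B4 (25.4%), 3 in shU2AF2 (29%) and 3 in shZNF384 (24.5%). In a limma fit over the whole table, a difference from shControl was called at an adjusted p under 0.05. In shU2AF2, 3 of the 4 genes (HTT, VCP and TMEM106B) were called higher, where 5.88% of 12362 tested genes were called higher and 7.27% in either direction. In shPABPN1, HTT and TMEM106B were called higher, with 3.99% of 12278 genes called higher and 4.72% in either direction. The 1 called gene was HTT in shSF3B4 (4.26% of 12195 higher), TARDBP in shPCBP2 (1.05% of 12434 higher) and TMEM106B in shZNF384 (1.44% of 12541 higher). In either direction, 5.42%, 1.17% and 1.5% of genes were called in these 3 comparisons. None of the 4 was called in shHDAC1, where limma called 0.0243% of 12371 genes in either direction and 0% higher (740 genes had an unadjusted p under 0.05). Since the genes were chosen from these differences, nothing is read from these counts. The 6 comparisons share the same 3 control libraries, so they are not independent of each other.

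Each of these 8 calls was lost under at least 1 other setting. The call of HTT in shU2AF2 was lost without any 1 of the 5 libraries compared, that of TARDBP in shPCBP2 without either shPCBP2 library, and that of TMEM106B in shZNF384 without shZNF384 replicate 1. With each library centred on its median, all but those of VCP in shU2AF2 and TMEM106B in shPABPN1 were lost. With only the 2 groups in the fit, all but those of HTT in shSF3B4 and TMEM106B in shU2AF2 were lost. Without shControl replicate 1, the library with the lowest mean over all genes, the differences were 0.11 for TARDBP in shPCBP2, 0.12 for HTT in shSF3B4, 0.12 for VCP in shU2AF2 and 0.105 for TMEM106B in shU2AF2.

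The size of these differences was moderate next to the rest of the table. The difference of HTT in shSF3B4 was higher than that of 90.3% of the genes tested, that of TARDBP in shPCBP2 than 90.9%, that of VCP in shU2AF2 than 89.7% and that of TMEM106B in shU2AF2 than 85.3%. The median difference over all genes was 0.012 in shSF3B4, 0.015 in shPCBP2 and 0.012 in shU2AF2. In shHDAC1, the difference of TARDBP was higher than that of 11.7% of the genes, with a median of 0.003 over all genes.

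Setting each knockdown against the mean of the other 5 leaves shControl, and with it the nuc ending of its library names, out of the difference. The shControl libraries still enter the spread behind each SE and call. TARDBP in shPCBP2 was then higher by 0.108 (SE 0.016) and in shHDAC1 lower, at −0.12 (SE 0.016). HTT in shSF3B4 was higher by 0.098 (SE 0.009), but in shU2AF2 and shZNF384 it stood at −0.004, where it had been 0.04 above shControl. HTT in shHDAC1 was lower, at −0.076. VCP in shU2AF2 was higher by 0.129 (SE 0.016) and in shPABPN1 lower, at −0.087. TMEM106B was higher by 0.066 (SE 0.008) in shU2AF2 and lower, at −0.072 (SE 0.008), in shSF3B4 and −0.054 in shHDAC1. All 4 genes thus stood below the mean of the other knockdowns in shHDAC1. There 5.29% of 11463 genes were called lower by the same test and 5.84% in either direction, TARDBP, HTT and TMEM106B among them. Since the 4 genes were chosen with these values known, nothing is read from these calls either.

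**Figure D3:**
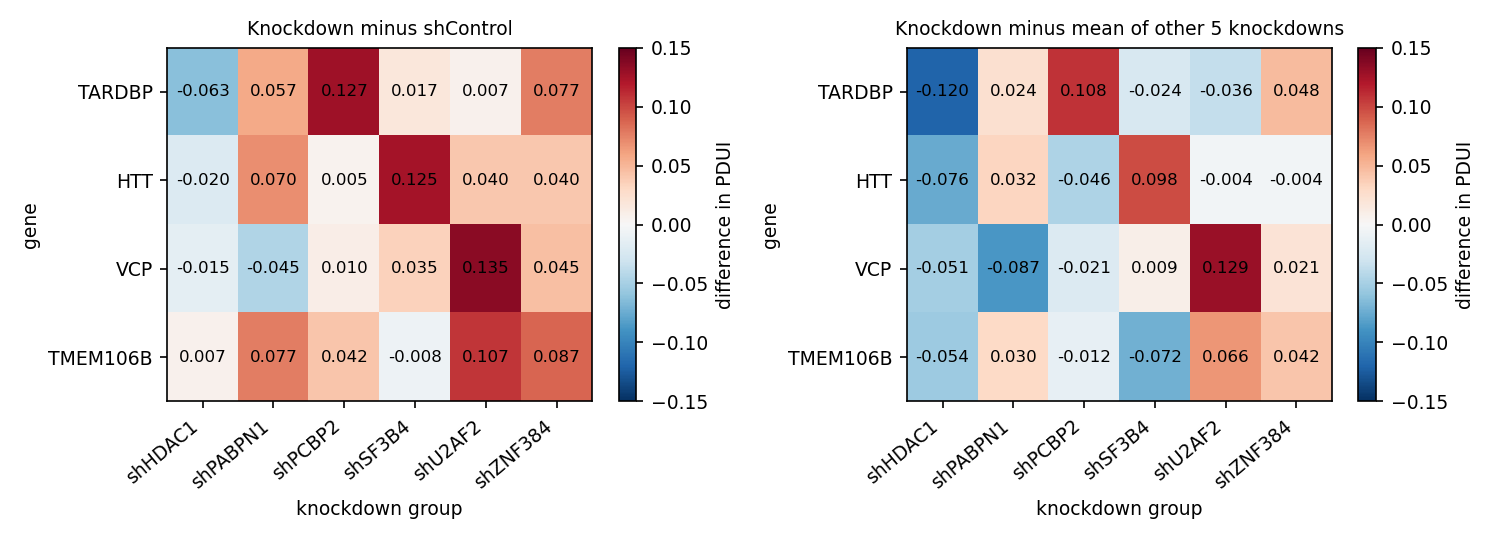
Difference in PDUI for each gene (rows) and knockdown (columns), against shControl on the left and against the mean of the other 5 knockdowns on the right, with red for higher and blue for lower. The largest rise of each gene is 0.107 to 0.135 on the left and 0.066 to 0.129 on the right. It is the largest of its row in both panels by construction, since both order the knockdowns of a gene by their group means.

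The 4 profiles differed from each other. Over the 15 libraries Pearson's r was 0.49 between VCP and TMEM106B, 0.405 between TARDBP and TMEM106B, 0.194 between HTT and TARDBP, 0.177 between HTT and VCP, 0.0996 between HTT and TMEM106B and 0.0198 between VCP and TARDBP. Libraries of a group are included together in these values, and the points share the preparation and scale of their library. Ranked by likeness to TARDBP among 10197 genes with a value in every library and at least 5 distinct values, TMEM106B came at place 1425. By the same ranking for VCP it came at place 1802.

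Other genes followed each profile much more closely. For HTT these were HEBP2, a heme-binding protein gene (r = 0.956), TP53RK, a kinase of the KEOPS complex (r = 0.933), the non-coding EIF2AK3-DT (r = 0.924), TMEM39A (r = 0.911) and the sorting nexin gene SNX2 (r = 0.907). HEBP2 rose from a group mean of 0.03 in shControl to 0.145 in shSF3B4 and 0.09 in shPABPN1, and TP53RK from 0.193 to 0.325 and 0.285. For VCP they were RPS6KB2, a ribosomal S6 kinase (r = 0.931), DBNL, an actin-binding adaptor (r = 0.912), the proteasome subunit PSMD8 (r = 0.905), NBPF11 (r = 0.904) and ZBTB11-AS1 (r = 0.9). DBNL went from 0.103 in shControl to 0.685 in shU2AF2 and RPS6KB2 from 0.483 to 0.895, both over larger ranges than VCP.

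For TARDBP the nearest were the mitochondrial ribosomal protein gene MRPL46 (r = 0.921), ZNF511 (r = 0.903), UTP23, a ribosome biogenesis factor (r = 0.896), AC023509.1 (r = 0.873) and SNX14 (r = 0.868). ZNF511 stood at 0.343 in shControl, 0.255 in shHDAC1 and 0.56 in shPCBP2. For TMEM106B they were AC109460.1 (r = 0.941), the histone acetyltransferase KAT7 (r = 0.94), SBF1 (r = 0.931), MRPL42 (r = 0.921) and HIF1AN, the hydroxylase that inhibits HIF1A (r = 0.909). KAT7 was at 0.063 in shControl, 0.045 in shSF3B4 and 0.145 in shU2AF2, close to TMEM106B in level as well. With each library centred on its median, 3 of the 5 genes nearest to HTT and 3 of those nearest to TARDBP stayed among the nearest 5, against 2 for TMEM106B and 1 for VCP. These correlations are a description, with genes picked as the highest of many.

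**Figure D4:**
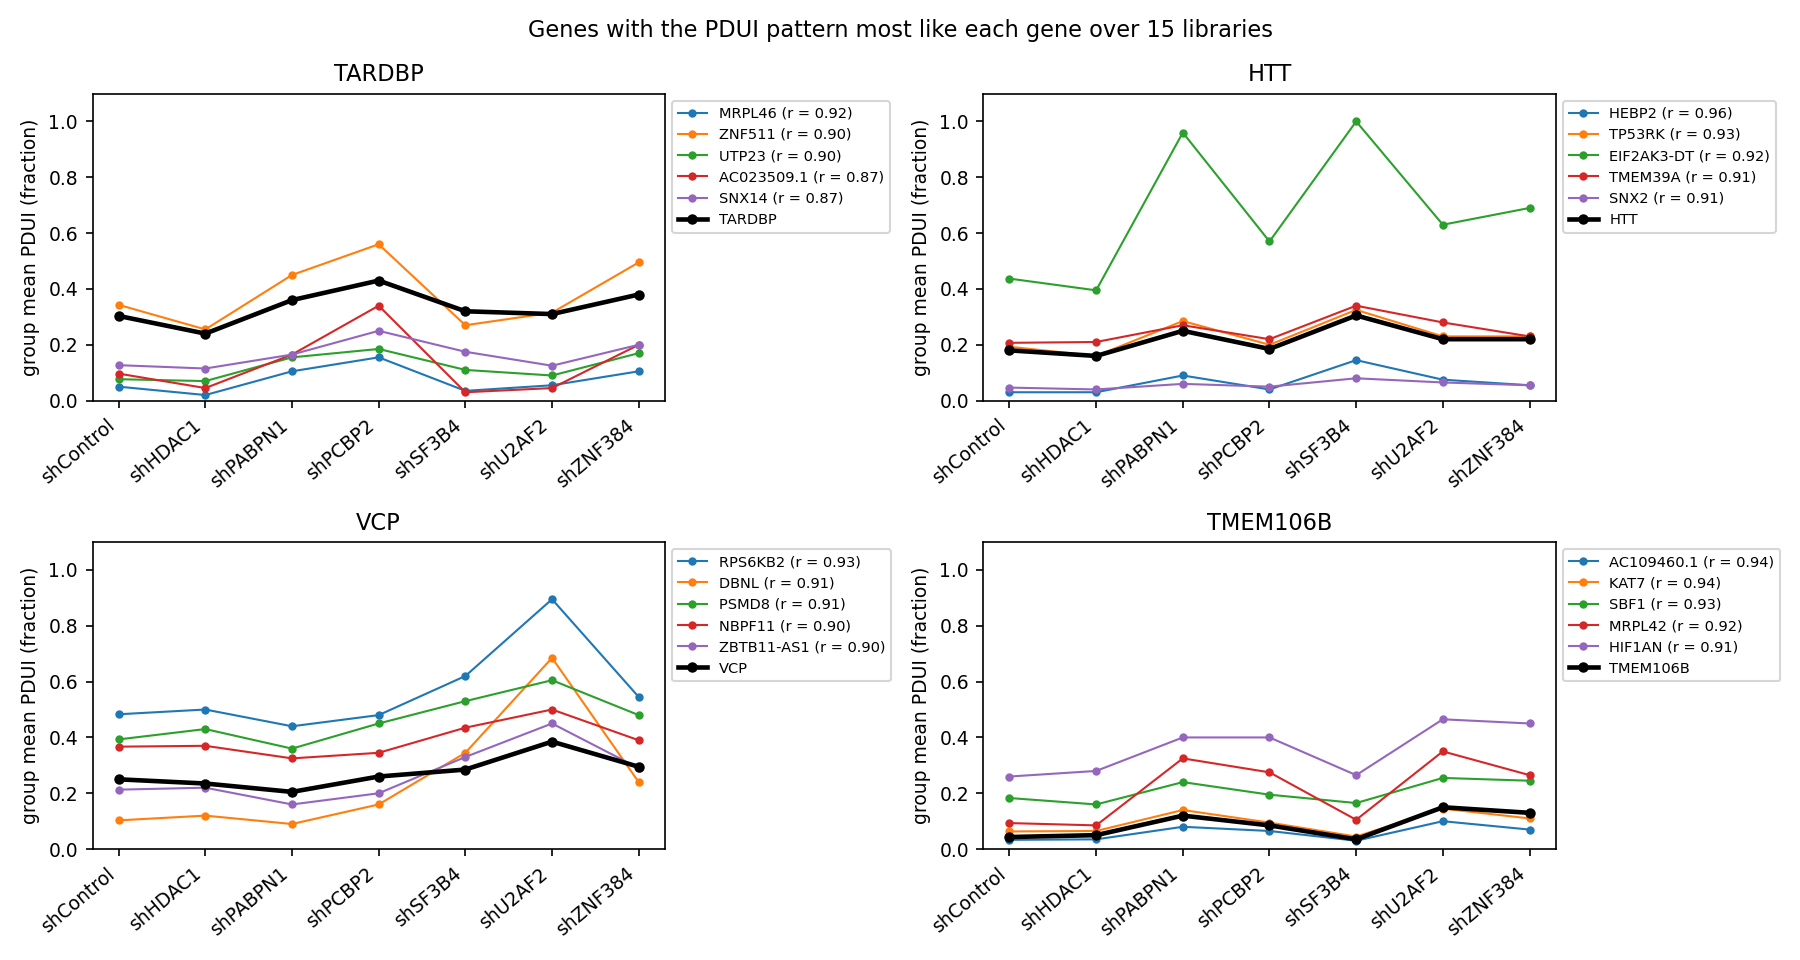
Group mean PDUI as a fraction on the y axis for each gene (black) and the 5 genes with the highest r over 15 libraries (colours), by group on the x axis. Lines only join the points of a gene. TARDBP and its 5 neighbours peak in shPCBP2, those of HTT in shSF3B4 and those of VCP and TMEM106B in shU2AF2.

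Other genes of the same diseases and pathways were counted from lists of ALS and FTD, polyglutamine disease, Alzheimer disease and Parkinson disease genes, VCP cofactors, huntingtin partners and lysosome genes. The table held 107 genes of these 132 symbols, the 4 genes themselves left out. These lists too were chosen with earlier results of these data known. Their counts and adjusted p-values, here and below, are therefore a description and not an independent test. In shPABPN1, 7 of 106 tested genes rose and 1 fell by the limma test, which is 7.55% of them against 4.72% of all genes. In shU2AF2, 4 of 105 rose and 1 fell (4.76% against 7.27%), and in shSF3B4, 3 of 104 rose and 1 fell (3.85% against 5.42%). In shPCBP2, 2 of 106 rose (1.89% against 1.17%), and in shZNF384, 1 of 106 (0.943% against 1.5%). In shHDAC1 limma called none of 106, against 0.0243% of all genes, and 6 had an unadjusted p under 0.05, against 740 of 12371. The median difference of the listed genes was −0.007 in shPABPN1, 0.017 in shU2AF2, 0.012 in shSF3B4, 0.017 in shPCBP2, 0.032 in shZNF384 and 0.006 in shHDAC1, with medians over all genes of −0.009, 0.012, 0.012, 0.015, 0.023 and 0.003. Without shControl replicate 1, the count in shPABPN1 was 9 higher and 9 lower, where it had been 7 and 1. The split over all genes moved in the same way, from 490 higher and 89 lower to 519 and 529.

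Among ALS and FTD genes, 3 of 25 rose in shPABPN1, where 3.99% of all genes rose. VAPB, which tethers the endoplasmic reticulum to other membranes, was at 0.15, 0.16 and 0.14 in shControl and at 0.36 and 0.31 in shPABPN1, a rise of 0.185 (SE 0.016, limma, adjusted p = 0.000295). ANXA11, an annexin that links RNA granules to lysosomes, rose from 0.047 ± 0.006 to 0.095 ± 0.021 in shPABPN1 (n = 3 and 2, limma, adjusted p = 0.0324) and to 0.115 ± 0.007 in shU2AF2 (limma, adjusted p = 0.00383). VAPB also rose to 0.245 ± 0.021 in shPCBP2 and 0.265 ± 0.021 in shZNF384 (limma, adjusted p = 0.0294 and 0.0176). The call of VAPB in shPCBP2 was lost without any 1 of the 5 libraries, with an adjusted p of 0.0895 without shControl replicate 1. Its call in shZNF384 was lost without shControl replicate 3 or either shZNF384 library, and that of ANXA11 in shPABPN1 without shControl replicate 2 or 3 or shPABPN1 replicate 2.

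Of 14 Alzheimer disease genes tested in shSF3B4, 1 rose and 1 fell, where 5.42% of all genes were called. BACE1, the beta-secretase, rose from 0.323 ± 0.025 to 0.58 ± 0.028 in shU2AF2 (n = 3 and 2, limma, adjusted p = 0.00418) and to 0.495 ± 0.021 in shSF3B4 (limma, adjusted p = 0.0399). The shSF3B4 call was lost without any 1 of the 5 libraries, and against the other 5 knockdowns BACE1 in shSF3B4 differed by 0.034 (limma, adjusted p = 0.728). In shU2AF2 BACE1 was the 1 called gene of the 15 tested, or 6.67% against 7.27% of all genes. The last exon of BACE1 overlaps exons of BACE1-AS and RNF214, so its values are uncertain. Of 15 Parkinson disease genes, 1 was called in shU2AF2 (6.67% against 7.27% of all genes). This was VPS13C, a lipid transfer protein, which fell from 0.977 ± 0.04 to 0.72 ± 0.028 (n = 3 and 2, limma, adjusted p = 0.038). The call was lost without any 1 of the 5 libraries. None of the polyglutamine disease genes was called by limma in any knockdown, with 4 or 5 of them tested each time. Of all genes, 0.0243% in shHDAC1 to 7.27% in shU2AF2 were called. At an unadjusted p under 0.05 there was 1 polyglutamine disease gene in shPABPN1, 1 in shU2AF2 and 0 in the other 4 knockdowns. Over all genes there were 2224 of 12278 in shPABPN1 and 2374 of 12362 in shU2AF2.

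Of 17 VCP cofactors, 2 rose in shPABPN1, against 3.99% of all genes, while VCP itself stood below the control libraries. The difference of VCP there, −0.045, was not called and was higher than that of 32.4% of the genes tested. With libraries centred it was −0.023. UBXN2A, a UBX-domain adaptor of VCP, rose from 0.18 ± 0.01 to 0.365 ± 0.049 (n = 3 and 2, limma, adjusted p = 0.0014). DERL2, a membrane protein of endoplasmic reticulum-associated degradation, rose from 0.123 ± 0.021 to 0.25 ± 0.071 (n = 3 and 2, limma, adjusted p = 0.0203), a call lost without shControl replicate 3. In shU2AF2, where VCP was highest, limma called none of the 17, against 7.27% of all genes. An unadjusted limma p under 0.05 was reached by 3 of them and by 2374 of 12362 genes. Of 10 huntingtin partners, 1 rose and 1 fell in shPABPN1 (4.72% of all genes called). Of those tested, 1 of 10 also rose in shPCBP2 (1.17% called) and 1 of 9 in shU2AF2 (7.27% called). SETD2, a histone H3 methyltransferase, fell in shPABPN1 from 0.38 ± 0.03 to 0.25 ± 0.042 (n = 3 and 2, limma, adjusted p = 0.0482), and that call was lost without shControl replicate 2 or 3 or either shPABPN1 library.

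Among lysosome genes, the 1 called gene was HEXA, a subunit of beta-hexosaminidase. It was 1 of 24 tested in shU2AF2 (4.17% against 7.27% of all genes) and 1 of 24 in shSF3B4 (4.17% against 5.42%). In shPABPN1 it was 1 of 23 (4.35% against 4.72%). It stood at 0.09, 0.08 and 0.07 in shControl and at 0.43 and 0.35 in shU2AF2, a rise of 0.31 (SE 0.022, limma, adjusted p = 5.42e-05). It also rose to 0.25 ± 0.028 in shPABPN1 and 0.2 ± 0.028 in shSF3B4 (n = 2 each, limma, adjusted p = 0.00246 and 0.0132), the latter call lost without shSF3B4 replicate 2. Against the other 5 knockdowns HEXA differed by 0.237 in shU2AF2 and 0.069 in shPABPN1 (limma, adjusted p = 0.00011 and 0.046), but by 0.009 in shSF3B4 (limma, adjusted p = 0.908). TMEM106B, of the same organelle, was likewise highest in shU2AF2 but not above the control range in shSF3B4. With each library centred on its median, 7 of the 14 calls named here held: VAPB, UBXN2A, DERL2 and HEXA in shPABPN1, and BACE1, VPS13C and HEXA in shU2AF2. Against the other 5 knockdowns, a difference that leaves shControl out, limma called 8 of the 14 in the same direction. Both comparisons use the same knockdown libraries, by which the 14 were picked, so a shared direction is partly fixed in advance. Those not called were ANXA11 in shPABPN1, VAPB in shPCBP2 and shZNF384, BACE1 and HEXA in shSF3B4 and VPS13C in shU2AF2.

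**Figure D5:**
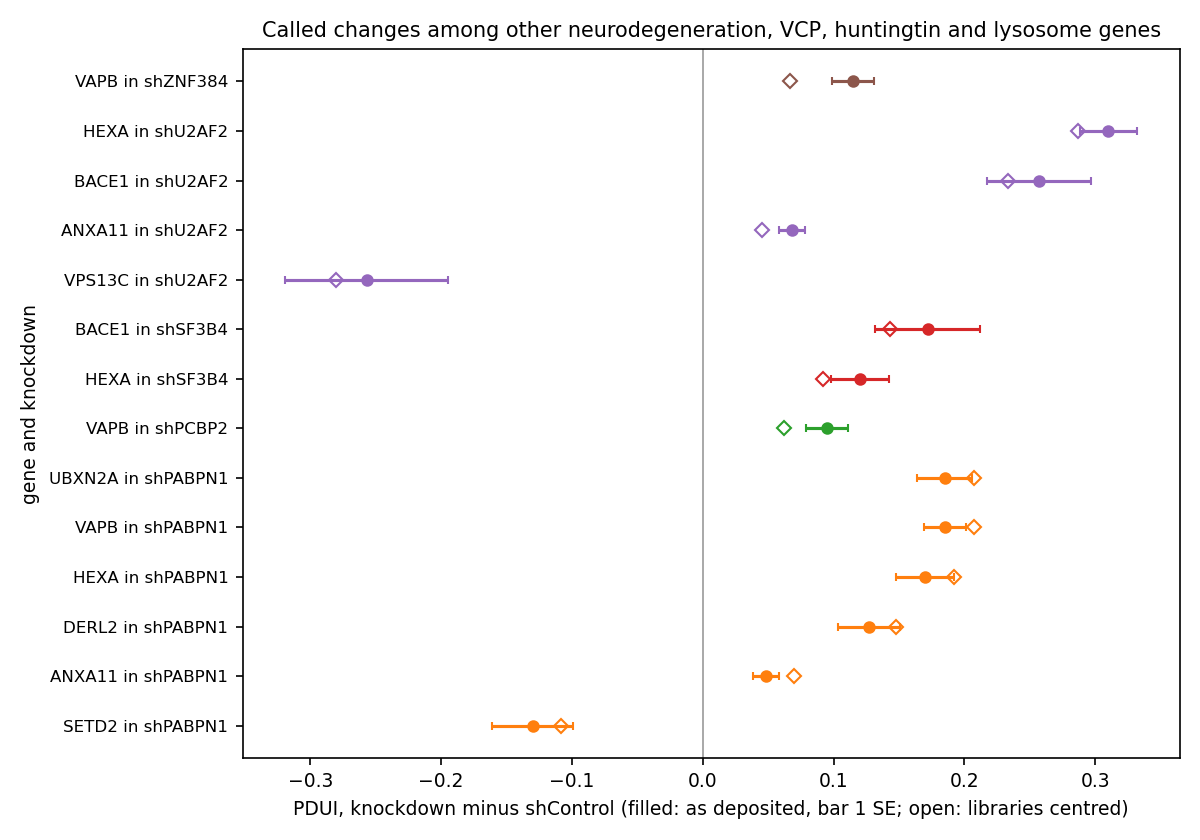
Difference in PDUI from shControl (x axis) for the listed genes described above, in each knockdown where limma called them (y axis). Filled points are values as deposited with a bar of 1 SE, open diamonds are values with libraries centred, and colours mark the knockdown. HEXA in shU2AF2 has the largest rise, 0.31, and 2 of the 14 points are falls.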

How the data were processed

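The authors deposited 1 table of PDUI as a fraction per transcript and library, with values from 0.001 to 1. Build hg38 is per the submitters' processing notes. For the aligner, the site caller and the annotation, the entry here is: not given in the sources used here. Libraries were grouped by their titles. Titles and library names number the shSF3B4 libraries differently, so both columns count as group members only, numbered as in the table's header.

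Values entered limma 3.58.1 (R 4.3.3) as deposited, without normalisation, with all 15 libraries in 1 fit, 1 mean per group and eBayes with a trend. Residual degrees of freedom were 8, with a prior of 1.06. A gene was tested with a value in every library of the knockdown and at least 2 of shControl, or in every knockdown library where shControl was not part of the difference. Tests were two-sided, with Benjamini-Hochberg adjustment over all genes of a comparison. The script was tested on simulated data with independent noise and no offsets between libraries. That test therefore cannot speak to calls that were lost when libraries were centred.

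The 4 genes and the lists were chosen with earlier results of these data known. Listed genes are named where called with both knockdown libraries beyond the control range, up to 4 per list and comparison. Some called genes are counted and not reported here by name. Likeness was ranked by Pearson's r over 15 libraries, 5 genes each. Of the table's transcripts, 97.3% were found in GENCODE 29 and 54.9% had the same version. The alternatives were centring on library medians, a logit scale bounded to 0.01 and 0.99, only the 2 groups in the fit, a replicate block and leaving out each library.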

Additional observations from a re-analysis of the deposited data

How the results depend on the processing

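Over the alternatives run, the largest rise of each of the 4 genes, chosen with these values known, was 0.093 to 0.135 for TARDBP in shPCBP2, 0.097 to 0.14 for HTT in shSF3B4 (without a replicate block), 0.112 to 0.15 for VCP in shU2AF2 and 0.083 to 0.117 for TMEM106B in shU2AF2. Centring subtracts 1 constant per library, so small differences move with it by construction. With libraries centred, HTT in shU2AF2 fell to 0.017 and in shZNF384 to −0.008, VCP in shZNF384 to −0.003 and TMEM106B in shPCBP2 to 0.008. Counts of called genes depended far more on the setting, and except where stated the cause was not tested.

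With libraries centred, the genes called against shControl were 0 in shHDAC1 (647 at an unadjusted p under 0.05), 362 in shPABPN1, 4 in shPCBP2, 210 in shSF3B4, 391 in shU2AF2 and 0 in shZNF384 (1465 unadjusted). Of the listed genes, 0, 1, 3 and 0 were then called in shPCBP2, shSF3B4, shU2AF2 and shZNF384 (6, 12, 16 and 13 unadjusted). In shSF3B4 centring moved the split from 520 higher and 141 lower to 111 and 99, and in shU2AF2 from 727 and 172 to 259 and 132. Against the other 5 knockdowns, centring gave 204 in shHDAC1, 18 in shPCBP2, 382 in shSF3B4, 336 in shU2AF2 and 1 in shZNF384, where 669, 159, 801, 744 and 74 had been called. There the split in shPABPN1 turned from 480 higher and 808 lower to 805 and 93. On the logit scale 13 genes were called in shHDAC1, 148 in shZNF384 against the other 5, and 3 listed genes in shZNF384.

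With only the 2 groups in the fit, and so fewer residual degrees of freedom, 0 genes were called in shPABPN1 (1692 unadjusted), 2 in shPCBP2, 186 in shSF3B4, 327 in shU2AF2 and 5 in shZNF384. Of the listed genes, 0 were called in shPABPN1, shPCBP2 and shZNF384 (14, 12 and 9 unadjusted) and 1 in shSF3B4.

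For libraries with the same replicate number, the median correlation of their deviations from the group mean was 0.0175 over 30 pairs. For different numbers it was −0.012 over 40 pairs. In a group of 2 libraries the deviations mirror each other by construction, so these values cannot settle whether libraries of a number belong together. With a replicate block the counts were 6 in shHDAC1, 233 in shPABPN1, 7 in shPCBP2, 534 in shU2AF2 and 3 in shZNF384, and 5, 0, 3 and 0 listed genes in shPABPN1, shPCBP2, shU2AF2 and shZNF384 (13 and 18 unadjusted where 0). The block fits also left out both shSF3B4 libraries. Only shControl has a replicate 3, so the block takes up that library. The change in counts is therefore not the effect of pairing alone. Against the other knockdowns, without shSF3B4, the block gave 462 in shPABPN1, 17 in shPCBP2 and 2 in shZNF384. No paired analysis was possible for shSF3B4 because its columns could not be tied to single samples.

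Leaving out 1 library at a time gave 4 to 51 genes in shHDAC1, 343 to 1048 in shPABPN1 (the most without shControl replicate 1), 46 to 119 in shPCBP2, 429 to 536 in shSF3B4, 573 to 788 in shU2AF2 and 22 to 140 in shZNF384. The listed genes called ran from 0 to 1, 5 to 18, 0 to 0, 2 to 4, 4 to 5 and 0 to 1 in the same order. Against the other 5 knockdowns the ranges were 164 to 214, 354 to 498, 20 to 38, 415 to 431, 379 to 399 and 11 to 15. A group left with 1 library is assumed to vary like the others. Without read counts, the precision that depth gives each value is unknown.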
